A study of Homo sapiens with 20 samples.

Results

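The set described here holds 9 genes through which a human cell detects double-stranded RNA (dsRNA) and passes the signal on to interferon and NF-κB. They are the cytosolic receptors *IFIH1* (MDA5), *DDX58* (RIG-I) and *DHX58* (LGP2), the endosomal receptor *TLR3*, the helicase *ZNFX1*, the adaptors *MAVS* and *TICAM1* (TRIF), and the kinases *TBK1* and *IKBKE*. Each was found by matching its Ensembl identifier to its symbol, and all 9 were among the 58233 identifiers of the count files. RNA-seq read counts were compared in 4 human lung cancer cell lines: HCC366 (labelled adenosquamous), NCI-H1650 (labelled adenocarcinoma), NCI-H196 (labelled as a variant small cell line) and A549 (labelled adenocarcinoma). The first 3 are the lines that the study treats as ADAR1-dependent, and A549 as not dependent. Every library came from cells carrying a lentiviral vector that co-expresses Cas9 with 1 sgRNA, so the controls also express Cas9, with an sgRNA against GFP. In the knockout groups the sgRNA was against *ADAR*, which encodes the RNA-editing enzyme ADAR1. HCC366, NCI-H1650 and NCI-H196 were sequenced without added interferon, with GFP sg1 and sg2 as the control pair and ADAR sg1 and sg2 as the *ADAR* KO pair. A549 was sequenced with the same 4 sgRNAs after 24 h in vehicle (sterile water) and again after 24 h with 10 ng/mL interferon-β (IFN-β). This gave 20 libraries in 10 conditions with 2 libraries each. Per the study's methods, RNA of the 3 dependent lines was taken a set number of days after transduction. For A549 only the 24 h of treatment is given. In comparisons with A549, line therefore cannot be told apart from time since transduction or from vehicle. The 2 libraries of a condition differ in their sgRNA, nothing states that they came from separate cultures, and each p-value therefore rests on a spread between such libraries, which may be technical. The edgeR test estimates that spread largely from all genes together. A gene whose own 2 libraries differ widely can therefore still have a small p-value.

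MDA5 binds long dsRNA in the cytosol, RIG-I binds dsRNA with 5′ triphosphate or diphosphate ends, and LGP2 has the helicase domain of both but lacks the signalling CARDs. Both signalling receptors pass to MAVS on mitochondria, whereas TLR3 in endosomes passes to TRIF, and both adaptors recruit TBK1 and IKKε (encoded by *IKBKE*), which phosphorylate IRF3. ADAR1 edits adenosines in endogenous dsRNA to inosine, which keeps these RNAs from being detected by MDA5. Genes of the receptors are themselves induced by interferon.

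By the GRCh37 annotation, *IFIH1* lies at chr2:163123584-163175194 on the minus strand, *DDX58* at chr9:32455300-32526206 on the minus strand and *DHX58* at chr17:40253422-40264732 on the minus strand. *TLR3* lies at chr4:186990065-187009227 on the plus strand and *ZNFX1* at chr20:47854483-47894963 on the minus strand. *MAVS* lies at chr20:3827446-3856770 on the plus strand, *TICAM1* at chr19:4815944-4831724 on the minus strand, *TBK1* at chr12:64845870-64895894 on the plus strand and *IKBKE* at chr1:206643819-206670222 on the plus strand. All are multi-exon protein-coding genes, from 2 exons in *TICAM1* to 22 in *IKBKE*. *ZNFX1* overlaps *ZFAS1* and *DDX27* on the opposite strand, and the strand setting used for counting is not given in the sources used here, so its reads cannot be told apart from theirs where they overlap. Over the 20 libraries *ZNFX1* held 70011 reads, *DDX27* 14857 and *ZFAS1* 7127. *IKBKE* held 3654 reads against 132 for its antisense gene, and *TBK1* 6038 against 67.

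Because several members respond to interferon in the results below, the region before their start sites was searched for 3 motifs, on both strands. RefSeq windows from 250 bases before to 50 bases after the start (GRCh38.p14) were found for 7 of the 9 members. The interferon-stimulated response element was searched as GAAANNGAAA and is held by 3.57% of all 35116 windows. The interferon-γ-activated site was searched as TTCNNNGAA (7.66% of windows), and the NF-κB site as GGGANTTTCC (0.558% of windows). *IFIH1* held 3 matches to the first motif, a pair of them overlapping, and 1 to the NF-κB motif. *DDX58* and *TICAM1* each held 1 NF-κB match and *TLR3* held 1 match to the first motif and 2 to the second. The windows of *MAVS*, *TBK1* and *IKBKE* held none of the 3, which says only that these letters are not in these windows. The stretches with a match are printed from 200 bases before to 10 bases after the start, 5′ to 3′ on the gene's own strand, with the matches in capitals (a match on the opposite strand reads as the reverse complement). They are chr2:162318675-162318884 and chr9:32526187-32526396 on the minus strand, chr4:186068956-186069165 on the plus strand and chr19:4831703-4831912 on the minus strand, in that order.
IFIH1: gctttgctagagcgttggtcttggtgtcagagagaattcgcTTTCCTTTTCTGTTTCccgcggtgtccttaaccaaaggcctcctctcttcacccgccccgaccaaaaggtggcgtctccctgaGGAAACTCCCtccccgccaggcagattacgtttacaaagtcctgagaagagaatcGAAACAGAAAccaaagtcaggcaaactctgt
DDX58: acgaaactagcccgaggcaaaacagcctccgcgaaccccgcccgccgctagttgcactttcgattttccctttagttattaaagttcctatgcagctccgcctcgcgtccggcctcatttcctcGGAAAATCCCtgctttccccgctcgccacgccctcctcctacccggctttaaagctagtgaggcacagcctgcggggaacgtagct
TLR3: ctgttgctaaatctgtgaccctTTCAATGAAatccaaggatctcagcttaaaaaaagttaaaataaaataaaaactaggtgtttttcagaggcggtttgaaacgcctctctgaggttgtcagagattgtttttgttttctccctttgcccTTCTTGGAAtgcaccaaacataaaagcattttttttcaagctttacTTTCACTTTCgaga
TICAM1: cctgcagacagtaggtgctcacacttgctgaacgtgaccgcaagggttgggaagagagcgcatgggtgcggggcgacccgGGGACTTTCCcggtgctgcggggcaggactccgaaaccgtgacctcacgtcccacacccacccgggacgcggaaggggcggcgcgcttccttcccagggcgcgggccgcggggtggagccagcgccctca

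**Figure D1:**
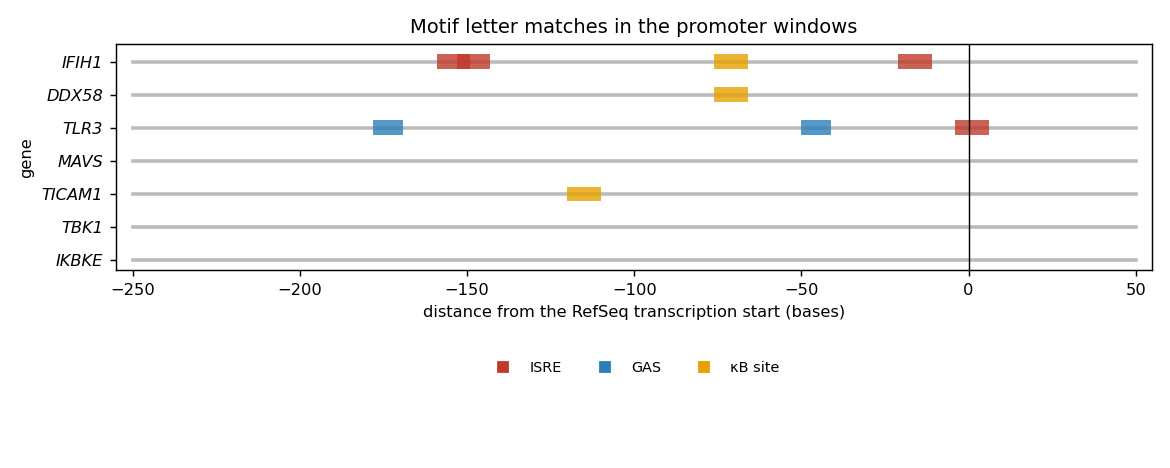
Positions of the 3 motifs in the promoter windows of the 7 members with a RefSeq window (x axis, bases from the transcription start; 1 row per gene; marker shape and color give the motif). *IFIH1* carries 4 matches, *TLR3* 3, *DDX58* and *TICAM1* 1 each, and the other 3 rows are empty.

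Reads on genes ranged from 62679 to 19520189 per library, with a median of 6411279. The shallow extreme was NCI-H196 GFP sg2, in which 1 read is worth 14.66 CPM (counts scaled to a common library size), so its member values rest on 0 to 42 reads. HCC366 ADAR sg2 stood apart by 85.56% of its reads being not uniquely aligned, against 22.51 to 59.11% in the others. *ADAR* itself was lower in both ADAR than in both GFP libraries of every line and, in A549, within each treatment, although the difference was not called in HCC366 (adjusted p = 0.208) and the RNA of a cut gene need not disappear. The cell line labels were checked against marker genes. NCI-H196 had 3 of 5 neuroendocrine markers at 0 reads in all its libraries, with the 5 together at 0 to 3.24 CPM, while its fibroblast markers summed to 3930 to 5310 CPM. HCC366 had 1 of 3 squamous markers at 0 reads, with the 3 together at 1.43 to 4.89 CPM. NCI-H1650, labelled adenocarcinoma, had the highest squamous sum of the lines (100 to 118 CPM, mostly *DSG3* at 103). Its neuroendocrine sum was also the highest (14.6 to 25.2 CPM). Epithelial markers summed to 41.8 to 63.6 CPM in NCI-H196 and 1630 to 2680 in HCC366. In A549 they summed to 3080 to 5470 CPM and in NCI-H1650 to 4250 to 5060. No 2 libraries held identical counts.

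The first comparison asked how much of the dsRNA-sensing genes each line expressed before *ADAR* was cut, using the 8 GFP libraries without IFN-β. The cytosolic receptors were far lower in A549 than in the 3 ADAR1-dependent lines, *MAVS* was higher in A549, and *TBK1* was at one level in all. By edgeR's quasi-likelihood test, 7 members were higher and 1 lower in HCC366 than in A549 (background 32.1% and 32.8% of genes tested). In NCI-H1650 6 were higher and 1 lower (33.9% and 34.4%), and in NCI-H196 5 were higher and 1 lower (35.8% and 34.7%). Between the dependent lines, 2 members were higher and 4 lower in HCC366 than in NCI-H1650 (27.2% and 29.5%), 4 higher and 1 lower in HCC366 than in NCI-H196 (28.2% and 29.0%), and 5 higher and 1 lower in NCI-H1650 than in NCI-H196 (30.7% and 31.1%). Since the lines differ at most of the genes tested, a difference between them is not in itself particular to the set. Counts from bulk cells cannot tell fewer expressing cells from less RNA per cell.

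*IFIH1*, the receptor for long dsRNA, was at 1.858 and 1.301 CPM in A549 with GFP sg1 and sg2. It was at 162.8 and 328.6 CPM in HCC366, 304.4 and 299.2 CPM in NCI-H1650, and 24.65 and 82.63 CPM in NCI-H196. The A549 pair thus lay below every library of the dependent lines, and the HCC366 and NCI-H196 pairs were each spread widely. The log2 difference from A549 was 7.40 (SE 0.23, adjusted p = 3.66e-88) in HCC366, 7.63 (SE 0.22, adjusted p = 5.07e-93) in NCI-H1650 and 4.09 (SE 0.30, adjusted p = 3.22e-31) in NCI-H196. HCC366 and NCI-H1650 did not differ beyond their spread (log2 difference −0.23, adjusted p = 0.124), unless HCC366 GFP sg2 was left out (−0.94, adjusted p = 1.57e-07). NCI-H1650 exceeded NCI-H196 by 3.55 on the log2 scale (SE 0.19), or by 1.88 (adjusted p = 0.0141) without NCI-H196 GFP sg1, and HCC366 exceeded NCI-H196 by 3.31 (SE 0.20), or by 1.65 (adjusted p = 0.0394) without it.

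*DDX58* followed the same order of mean levels. Its mean level was 22.48 ± 1.455 CPM (SD, n = 2) in A549, 89.39 ± 40.53 in NCI-H196, 208.7 ± 76.22 in HCC366 and 462.8 ± 72.66 in NCI-H1650. All 6 pairs of lines differed past the threshold, from a log2 difference of 1.10 between NCI-H1650 and HCC366 (adjusted p = 2.41e-13) to 4.35 between NCI-H1650 and A549 (SE 0.15, adjusted p = 1.86e-76). Without NCI-H196 GFP sg1 the difference of NCI-H196 from A549 went from 1.47 to 2.36 (adjusted p = 0.00606), and that of HCC366 from NCI-H196 went from 1.78 to 0.89 and was no longer called (adjusted p = 0.285).

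*DHX58*, which lacks CARDs, was nearly silent in A549, with 1 read in each GFP library. Those 2 reads stood against 48 in the HCC366 pair, 267 in the NCI-H1650 pair and 179 in the NCI-H196 pair. The depth-corrected ratios to A549 were 90.43 (95% exact interval 23.71 to 768.1), 253.4 (69.47 to 2103) and 162.3 (44.29 to 1351), intervals that cover counting error only. All 3 differences passed edgeR's test (adjusted p = 5.91e-20, 1.04e-43 and 4.4e-33), of which that of NCI-H196 was lost without its GFP sg1 (adjusted p = 0.0683). NCI-H1650 had the highest level among the dependent lines at 29.14 ± 3.692 CPM (SD, n = 2), above HCC366 by 1.52 on the log2 scale (SE 0.28, adjusted p = 4.33e-07). It exceeded NCI-H196 by 0.65 (adjusted p = 0.0145), a call lost without NCI-H1650 GFP sg2 (0.55, adjusted p = 0.151) or NCI-H196 GFP sg1 (1.32, adjusted p = 0.639), with no filter (adjusted p = 0.0709) and with DESeq2 (adjusted p = 0.396).

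*TLR3* was low in every line. Its CPM was 0.5067 and 1.301 in A549, 1.596 and 3.553 in HCC366, 10.32 and 9.007 in NCI-H1650, and 0.3147 and 0 in NCI-H196, where the zero allows up to 54.07 CPM on the scale within that line. Only the NCI-H1650 pair lay far above the other lines. NCI-H1650 exceeded A549 by 3.23 on the log2 scale (SE 0.41, adjusted p = 3.63e-13). HCC366 exceeded A549 by 1.53 (SE 0.59, adjusted p = 0.0166), a call lost without A549 GFP sg1 (1.19, adjusted p = 0.0811) or HCC366 GFP sg2 (0.63, adjusted p = 0.713), and it went to 2.50 (adjusted p = 0.00625) without A549 GFP sg2. NCI-H196 held 3 *TLR3* reads against 18 in A549, a ratio of 0.3023 (95% exact interval 0.05704 to 1.036) that missed the threshold (adjusted p = 0.0708) but passed without A549 GFP sg1 (adjusted p = 0.0267).

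*ZNFX1*, a mitochondrial-membrane helicase that binds viral RNA and interacts with MAVS, was abundant in all lines. It averaged 150.7 ± 2.434 CPM (SD, n = 2) in A549, 435.2 ± 85.64 in NCI-H196, 452.2 ± 155.3 in HCC366 and 866.8 ± 26.24 in NCI-H1650. The log2 difference from A549 was 1.38 (SE 0.16), 1.61 (SE 0.15) and 2.52 (SE 0.15) in those 3 lines, each past the threshold (adjusted p = 5.79e-15, 5.15e-22 and 1.44e-42). HCC366 and NCI-H196 were neighbours that did not differ (log2 difference 0.23, adjusted p = 0.239), except without HCC366 GFP sg1 (0.58, adjusted p = 0.00148).

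The adaptors went in opposite directions. *MAVS* was at 467.7 and 490.1 CPM in A549, against 190.7 and 183.9 in HCC366, 161.3 and 164.8 in NCI-H1650, and 188.1 and 153.5 in NCI-H196. Both A549 libraries lay above all 6 others. The log2 difference from A549 was −1.36 (SE 0.14, adjusted p = 8.33e-19), −1.55 (SE 0.13, adjusted p = 7.12e-25) and −1.37 (SE 0.15, adjusted p = 8.81e-16), and held in every alternative run. Among the dependent lines no pair differed for *MAVS* (adjusted p = 0.234, 0.965 and 0.3). *TICAM1*, the adaptor of TLR3, was lowest in A549 at 10.64 ± 2.865 CPM (SD, n = 2). NCI-H1650 had 18.69 ± 5.421 CPM, NCI-H196 23.79 ± 16.94 and HCC366 35.88 ± 3.431. The difference of HCC366 from A549 was 1.67 on the log2 scale (SE 0.22, adjusted p = 2.54e-12). That of NCI-H1650 was 0.77 (SE 0.21, adjusted p = 0.000667), but 0.42 (adjusted p = 0.21) without NCI-H1650 GFP sg1 and 1.15 (adjusted p = 8.09e-05) without A549 GFP sg2. That of NCI-H196 was 1.67 (SE 0.21, adjusted p = 3.47e-13), but 0.08 (adjusted p = 0.996) without its GFP sg1.

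The 2 kinases that act after both adaptors differed from each other in pattern. *TBK1* averaged 40.85 ± 2.832 CPM (SD, n = 2) in A549, beside 39.69 ± 0.8201 for HCC366, 38.10 ± 3.884 for NCI-H1650 and 40.99 ± 7.889 for NCI-H196. None of its 6 pairwise differences passed the threshold, and the 95% intervals of the log2 difference from A549 were −0.38 to 0.30, −0.41 to 0.19 and −0.16 to 0.50. *IKBKE* was at 47.09 and 38.49 CPM in HCC366, above the other 6 libraries, which ran from 11.80 to 19.59 CPM. HCC366 exceeded A549 by 1.28 on the log2 scale (SE 0.20, adjusted p = 7.08e-09) and NCI-H1650 by 1.59 (SE 0.22, adjusted p = 9.35e-11), whereas A549, NCI-H1650 and NCI-H196 did not differ (adjusted p = 0.191, 0.12 and 0.777). Without A549 GFP sg2 the *IKBKE* difference of NCI-H196 from A549, −0.62, passed (adjusted p = 0.0285).

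Levels of different genes were set side by side per kilobase of annotated exon, 5225 bases for *IFIH1*, 10345 for *DDX58* and 11771 for *MAVS*. The order of genes depends on these lengths, which may exceed those of the RNAs expressed. In A549 *MAVS* led the set at 40.68 CPM per kilobase, followed by *ZNFX1* at 16.13, with *IFIH1* at 0.3023, *TLR3* at 0.1206 and *DHX58* at 0.03343. In NCI-H1650 *ZNFX1* led at 92.80 CPM per kilobase, followed by *IFIH1* at 57.77 and *DDX58* at 44.73, with *MAVS* at 13.85. *IFIH1* and *DDX58* were thus below *MAVS* in A549 and above it in NCI-H1650, whereas *DHX58* and *TLR3* were below it in both. In HCC366 *IFIH1* was also above *MAVS* (47.03 against 15.91 CPM per kilobase), while in NCI-H196 its mean was below (10.27 against 14.51). The NCI-H196 libraries disagreed, with *IFIH1* at 4.717 against 15.98 for *MAVS* in GFP sg1. In the shallow GFP sg2 *IFIH1* was at 15.81 against 13.04.

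**Figure D2:**
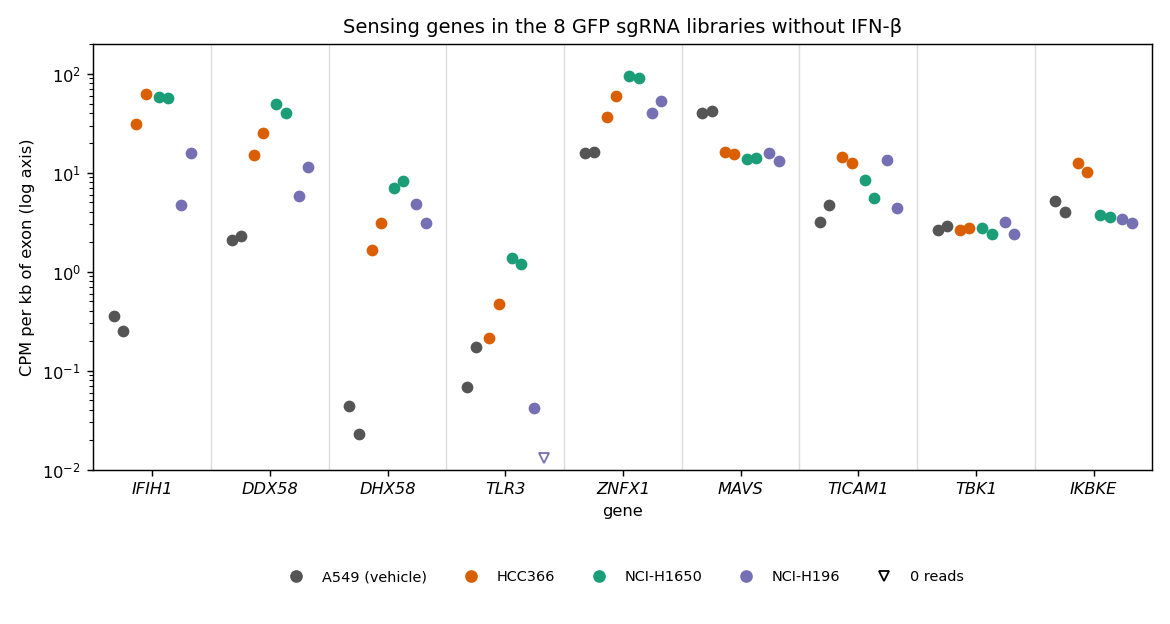
Level of each member (CPM per kilobase of exon, log axis) in the 8 GFP libraries without IFN-β, with 1 point per library and color by cell line; an open triangle marks 0 reads. Both A549 points sit lowest for *IFIH1*, *DDX58*, *DHX58* and *ZNFX1* and highest for *MAVS*, while the *TBK1* points of all lines lie together.

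The next comparison asked what IFN-β did to the set in A549. With GFP sgRNAs, 5 members rose and 1 fell among 9 tested (background 4.39% of genes higher and 1.31% lower). The 5 that rose were the receptors and *ZNFX1*, and the adaptor *MAVS* fell slightly. The vehicle libraries of the GFP pair enter this comparison as well as the basal one and the effect of *ADAR* KO without IFN-β, so these results are not independent. *IFIH1* went from 1.452 and 0.996 CPM, or 11 and 15 reads, to 233.9 and 229.5 CPM (log2 change 7.64, SE 0.19, adjusted p = 4.12e-24). *DDX58* went from 16.76 and 17.99 CPM to 642.7 and 555.3 CPM (log2 change 5.10, SE 0.13, adjusted p = 8.91e-24). In both genes the treated and untreated pairs were far apart.

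*DHX58* held 2 reads in the 2 vehicle libraries and 201 in the IFN-β libraries, a depth-corrected ratio of 85 (95% exact interval 23.23 to 706.7; adjusted p = 6.37e-10). Its level with IFN-β was only 5.908 and 8.569 CPM. *TLR3* rose from 0.3959 and 0.996 CPM to 25.51 and 21.24 CPM (log2 change 4.88, SE 0.32, adjusted p = 2.44e-13). *ZNFX1*, already abundant, rose from 116.4 and 116.7 CPM to 591.5 and 593.8 CPM (log2 change 2.35, SE 0.10, adjusted p = 1.79e-18). These 5 calls held in every alternative run.

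*MAVS* went from 365.4 and 375.1 CPM to 296.4 and 297.2 CPM (log2 change −0.32, SE 0.09, adjusted p = 0.0343). The call was lost without any one of 5 libraries, with adjusted p = 0.0509 without GFP IFN-β sg2, 0.0805 and 0.0812 without the ADAR vehicle sg1 and sg2, and 0.149 and 0.319 without the GFP vehicle sg1 and sg2, at log2 changes from −0.30 to −0.35. For the other adaptor and the kinases the GFP pairs gave log2 changes of 0.70 for *TICAM1* (adjusted p = 0.117), 0.38 for *TBK1* (adjusted p = 0.172) and 0.58 for *IKBKE* (adjusted p = 0.067). Each of these passed when 1 IFN-β library was left out. Without GFP IFN-β sg1 *TICAM1* was at 1.05 (adjusted p = 0.00468) and *IKBKE* at 0.76 (adjusted p = 0.0105), and without GFP IFN-β sg2 *TBK1* was at 0.59 (adjusted p = 0.0193).

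With ADAR sgRNAs, IFN-β moved all 9 members of A549, 8 up and 1 down (background 15.5% higher and 9.04% lower). *IFIH1* reached 215.6 and 234.4 CPM and *TLR3* 19.34 and 15.73 CPM. The log2 change was 7.72 for *IFIH1* (SE 0.20), 5.64 for *DDX58* (SE 0.13), 5.45 for *TLR3* (SE 0.39) and 2.30 for *ZNFX1* (SE 0.10), each past the threshold in every alternative. *DHX58* went from 4 to 223 reads, a depth-corrected ratio of 35.01 (95% exact interval 13.48 to 129.6; adjusted p = 2.32e-09). The signalling genes rose as well, with log2 changes of 1.55 for *TICAM1* (SE 0.25, adjusted p = 2.5e-05), 0.96 for *TBK1* (SE 0.15, adjusted p = 1.45e-05) and 1.97 for *IKBKE* (SE 0.18, adjusted p = 8.06e-10). *MAVS* fell by 0.36 on the log2 scale (SE 0.09, adjusted p = 0.00456), a call lost without ADAR IFN-β sg2 (−0.33, adjusted p = 0.0593) or ADAR vehicle sg1 (−0.33, adjusted p = 0.0748).

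The difference between both IFN-β effects was tested as an interaction of *ADAR* KO and IFN-β. Of the 9 members, 1 passed in the direction of a larger effect with *ADAR* KO, *IKBKE* (background 4.07% higher and 0.977% lower). *IKBKE* was at 15.31 and 11.69 CPM in the GFP vehicle pair, 16.97 and 22.29 CPM in the GFP IFN-β pair, 12.32 and 12.10 CPM in the ADAR vehicle pair, and 41.30 and 53.70 CPM in the ADAR IFN-β pair. Only the last pair stood apart from the rest. The interaction was 1.39 on the log2 scale (SE 0.26, adjusted p = 0.000955) and held in every alternative run. *DDX58* had an interaction of 0.54 (adjusted p = 0.0766), which passed without ADAR IFN-β sg1 (0.66, adjusted p = 0.0187) or GFP IFN-β sg1 (0.65, adjusted p = 0.0129). *TBK1* had 0.58 (adjusted p = 0.127), which passed without the same libraries (0.76, adjusted p = 0.0341, and 0.80, adjusted p = 0.011), and *TICAM1* had 0.84 (adjusted p = 0.191), which passed without GFP IFN-β sg2 (1.38, adjusted p = 0.0201). The interaction of *IFIH1* was 0.08 (adjusted p = 0.951) and that of *ZNFX1* −0.05 (adjusted p = 0.89).

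**Figure D3:**
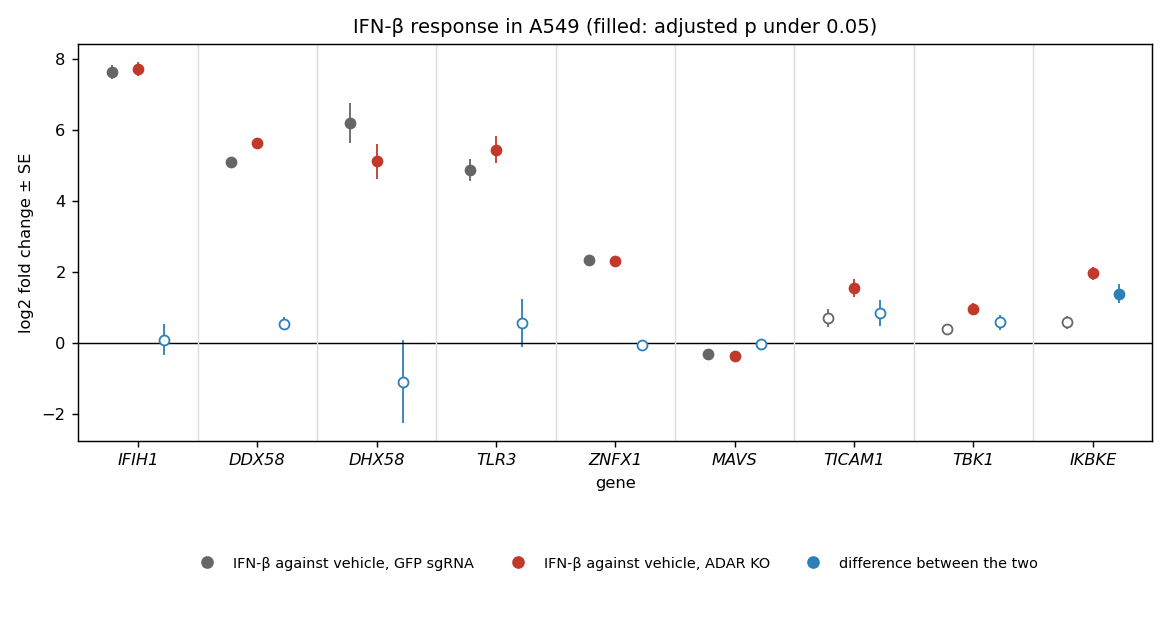
Log2 change with IFN-β in A549 for each member (x axis, point ± SE from edgeR), in cells with GFP sgRNAs, with ADAR sgRNAs, and the difference between both; filled points have an adjusted p below 0.05. *IKBKE* is the one filled point in the difference, at 1.39, while the *IFIH1* and *ZNFX1* points nearly coincide for both sgRNA targets.

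The levels of A549 with IFN-β can be set beside those of the dependent lines on a scale common to all 20 libraries. *IFIH1* averaged 281 ± 2.171 CPM (SD, n = 2) in A549 GFP with IFN-β, beside 281.6 ± 4.995 in untreated NCI-H1650 GFP and 221.5 ± 107 in HCC366. *DDX58* averaged 726.2 CPM beside 431.8 and 188.1 CPM in those lines, and *ZNFX1* 718.7 beside 808.6 and 407.4 CPM. *DHX58*, at 8.786 CPM, was beside 27.17 CPM in NCI-H1650 and 8.214 CPM in HCC366. In NCI-H196 GFP, where sg2 was shallow, *IFIH1* averaged 48.02 CPM, *DDX58* 80.4, *ZNFX1* 393 and *DHX58* 13.87. For *TLR3*, A549 GFP with IFN-β averaged 28.34 CPM, beside 9.015 in NCI-H1650, 2.321 in HCC366 and 0.1456 in NCI-H196. A549 with IFN-β was thus not alike in level to all 3 dependent lines. These are descriptions and were not tested.

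The comparison at the center of the study asked what cutting *ADAR* did. In A549 with vehicle, none of the 9 members passed the edgeR test (background 0.0324% of genes higher and 0.0906% lower, with 642 genes at an unadjusted p under 0.05), and each had an adjusted p of 0.998. *IFIH1* was at 1.585 and 0.6103 CPM with ADAR sgRNAs beside 1.452 and 0.996 CPM with GFP sgRNAs. *ZNFX1*, with more reads, was at 115.6 and 114.8 CPM beside 116.4 and 116.7 CPM, a log2 difference of −0.02 (SE 0.10). *IKBKE* had a log2 difference of −0.12 (SE 0.20). For *DHX58* 4 reads stood against 2, a ratio of 2.511 (95% exact interval 0.3599 to 27.76), so a change of several-fold was not detectable at this depth.

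In the ADAR1-dependent lines *DHX58*, *TICAM1*, *IKBKE* and *ZNFX1* were higher after *ADAR* was cut, while how many members passed the test differed by line. In NCI-H1650 6 of 9 were higher and none lower with ADAR sgRNAs (background 6.18% higher and 2.42% lower, median log2 change 0.37 against 0.0066 over all genes). In NCI-H196 6 of 8 tested were higher and 1 lower (10.3% and 7.50%, median 0.90 against −0.0039). In HCC366 none of 8 passed (1.20% higher and 0.0449% lower; 2014 genes at an unadjusted p under 0.05), although the median log2 change was 0.58 against −0.0069 over all genes. Fitted across the 3 lines together with line as a term, 4 of 9 were higher (4.28% and 1.02%): *DHX58*, *TICAM1*, *IKBKE* and *ZNFX1*. The first 3 of these calls held in every alternative. With DESeq2 the lines gave fewer calls, 3 in NCI-H1650 and none of the 5 members with an adjusted p in NCI-H196. Within a dependent line, a fit without 1 library sets 1 library against 2, takes the spread from that pair alone and assumes that the lone library varies like it. Without ADAR sg2, the HCC366 library with the most reads not uniquely aligned, 2 members of that line passed, and without ADAR sg1 6 did. Without the shallow GFP sg2 all 7 calls of NCI-H196 held, and without GFP sg1 none did. *DHX58*, *TICAM1*, *IKBKE* and *ZNFX1* were higher in each ADAR than in each GFP library of all 3 lines. *MAVS* was lower in each ADAR than in each GFP library of all 3 lines, in HCC366 narrowly. The share of all genes with such a separation is not given, here or below. These separations therefore describe the members and are no evidence that the members stand out.

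*DHX58* had the largest of the 4 changes. It was at 6.197 and 11.46 CPM with GFP sgRNAs and 23.62 and 49.15 CPM with ADAR sgRNAs in HCC366. In NCI-H1650 it went from 27.78 and 33.68 CPM to 58.87 and 68.34 CPM, and in NCI-H196 from 19.85 and 14.66 CPM to 57.86 and 49.05 CPM, where 14.66 CPM is a single read. No ADAR library overlapped the GFP pair of its line. The log2 change was 1.97 (SE 0.50, adjusted p = 0.106) in HCC366, 1.05 (SE 0.14, adjusted p = 2.13e-07) in NCI-H1650 and 1.36 (SE 0.17, adjusted p = 4.27e-13) in NCI-H196, and 1.36 (SE 0.19, adjusted p = 0.000484) across the 3 lines. The change in HCC366 passed without ADAR sg1 (2.30, adjusted p = 9.8e-12) or ADAR sg2 (1.28, adjusted p = 0.032), while that of NCI-H196 was lost without GFP sg1 (1.79, adjusted p = 0.687).

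*IFIH1* was at 318.9 and 317.4 CPM with GFP and 380 and 440.6 CPM with ADAR sgRNAs in NCI-H1650, with no overlap. The log2 change was 0.37 (SE 0.10, adjusted p = 0.0137) and was lost without ADAR sg2 (0.25, adjusted p = 0.234), GFP sg1 (0.38, adjusted p = 0.151) or GFP sg2 (0.33, adjusted p = 0.201). In HCC366 158 and 318 CPM stood against 331.6 and 387.3 CPM, a log2 change of 0.59 (SE 0.38, adjusted p = 0.427) that passed without ADAR sg1 (0.65, adjusted p = 0.00279). In NCI-H196 26.21 and 102.6 CPM stood against 104.6 and 84.18 CPM, so that the groups overlapped at GFP sg2, whose value rests on 7 reads (95% exact interval 41.25 to 211.4 CPM). The fit weights libraries by their reads, so the log2 change of 1.71 (SE 0.15, adjusted p = 8.92e-27) rested on GFP sg1, and without it the change was −0.21 (adjusted p = 0.932). Across the 3 lines *IFIH1* changed by 0.67 (SE 0.21, adjusted p = 0.072), and it passed without HCC366 ADAR sg2 (0.66, adjusted p = 0.00282) or HCC366 GFP sg2 (0.87, adjusted p = 0.0255).

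*DDX58* showed the same limits. In NCI-H1650 it went from 538.5 and 436.4 CPM to 575.5 and 701.1 CPM (log2 change 0.39, SE 0.11, adjusted p = 0.0125), a call lost without ADAR sg2 (0.23, adjusted p = 0.265) or GFP sg2 (0.21, adjusted p = 0.48). In HCC366 the groups overlapped, with 150.3 and 254.1 CPM against 215.2 and 151.3 CPM and a log2 change of −0.15 (adjusted p = 0.849). In NCI-H196 64.57 and 146.6 CPM stood against 173.6 and 120.8 CPM, where GFP sg2 held 10 reads (95% exact interval 70.29 to 269.6 CPM). The log2 change there was 1.01 (SE 0.12, adjusted p = 7.72e-16), 0.74 (adjusted p = 0.21) without ADAR sg1 and −0.15 (adjusted p = 0.944) without GFP sg1. Across the 3 lines the change was 0.30 (adjusted p = 0.376), and it passed without HCC366 ADAR sg2 (0.44, adjusted p = 0.0232).

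*ZNFX1* was at 332.3 and 543.8 CPM with GFP sgRNAs and 641.2 and 886.6 CPM with ADAR sgRNAs in HCC366, 927.3 and 899.7 against 1117 and 1170 CPM in NCI-H1650, and 398.4 and 615.7 against 675 and 646.4 CPM in NCI-H196. Each ADAR library lay above both GFP libraries of its line, in NCI-H196 narrowly. The log2 change was 0.80 (SE 0.35, adjusted p = 0.272), 0.32 (SE 0.10, adjusted p = 0.0267) and 0.67 (SE 0.11, adjusted p = 7.98e-08). The HCC366 value passed without ADAR sg1 (0.99, adjusted p = 1.59e-06) or ADAR sg2 (0.55, adjusted p = 0.0371). The NCI-H1650 call was lost without ADAR sg2 (0.28, adjusted p = 0.11), GFP sg1 (0.35, adjusted p = 0.182) or GFP sg2 (0.27, adjusted p = 0.321), and the NCI-H196 call without ADAR sg1 (0.49, adjusted p = 0.55), ADAR sg2 (0.55, adjusted p = 0.766) or GFP sg1 (0.10, adjusted p = 0.929). The change of 0.52 across the 3 lines (SE 0.14, adjusted p = 0.0445) was lost without any of 9 of the 12 libraries, namely all but HCC366 ADAR sg1, HCC366 ADAR sg2 and NCI-H196 GFP sg2, at log2 changes from 0.39 to 0.58 and adjusted p from 0.052 to 0.143.

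*TLR3* was too low to test in HCC366 and NCI-H196, which held 0 to 12 reads per library. In NCI-H1650 it was at 10.81 and 9.554 CPM with GFP sgRNAs and 8.729 and 11.53 CPM with ADAR sgRNAs (log2 change −0.02, SE 0.24, adjusted p = 0.978). The groups overlapped in this line, which had the highest untreated level of the endosomal receptor.

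Of the adaptors, *TICAM1* had the clearer change. It went from 37.18 and 32.37 CPM to 56.86 and 98.94 CPM in HCC366, from 23.60 and 15.76 CPM to 33.61 and 31.39 CPM in NCI-H1650, and from 38.03 and 14.66 CPM to 57.86 and 66.62 CPM in NCI-H196. The log2 change was 1.18 (SE 0.39, adjusted p = 0.181), 0.72 (SE 0.17, adjusted p = 0.00377) and 0.78 (SE 0.15, adjusted p = 4.71e-06), and 0.87 (SE 0.17, adjusted p = 0.00728) across the lines. The HCC366 value passed without ADAR sg1 (1.52, adjusted p = 3.49e-09), the NCI-H1650 call was lost without GFP sg2 (0.43, adjusted p = 0.278), and the NCI-H196 call was lost without ADAR sg1 (0.87, adjusted p = 0.133), ADAR sg2 (0.65, adjusted p = 0.709) or GFP sg1 (2.15, adjusted p = 0.572). *MAVS* pointed the other way. Its log2 change was −0.16 in HCC366 and −0.11 in NCI-H1650, neither past the threshold, and −0.30 in NCI-H196 (SE 0.10, adjusted p = 0.0237), where it went from 200 and 190.6 CPM to 167.5 and 160.6 CPM. That call was lost without ADAR sg1 (−0.29, adjusted p = 0.758), ADAR sg2 (−0.24, adjusted p = 0.998) or GFP sg1 (−0.22, adjusted p = 0.884).

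The kinases again differed. *IKBKE* went from 45.70 and 37.24 CPM to 54.24 and 68.55 CPM in HCC366, from 14.77 and 14.33 CPM to 28.60 and 31.39 CPM in NCI-H1650, and from 13.83 and 14.66 CPM to 33.50 and 29.48 CPM in NCI-H196. Both knockout libraries lay above both controls in each line. The log2 change was 0.58 (SE 0.35, adjusted p = 0.403), 1.04 (SE 0.18, adjusted p = 2.65e-05) and 1.12 (SE 0.20, adjusted p = 9.65e-07), and 0.87 (SE 0.15, adjusted p = 0.00225) across the lines. The HCC366 value passed without ADAR sg1 (0.75, adjusted p = 0.00758), the NCI-H1650 call held in every alternative, and the NCI-H196 call was lost without GFP sg1 (1.05, adjusted p = 0.802). *TBK1* had log2 changes of −0.49 (adjusted p = 0.556), −0.05 (adjusted p = 0.886) and 0.28 (adjusted p = 0.177), and the HCC366 value passed as a fall without ADAR sg1 (−1.11, adjusted p = 0.00216).

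**Figure D4:**
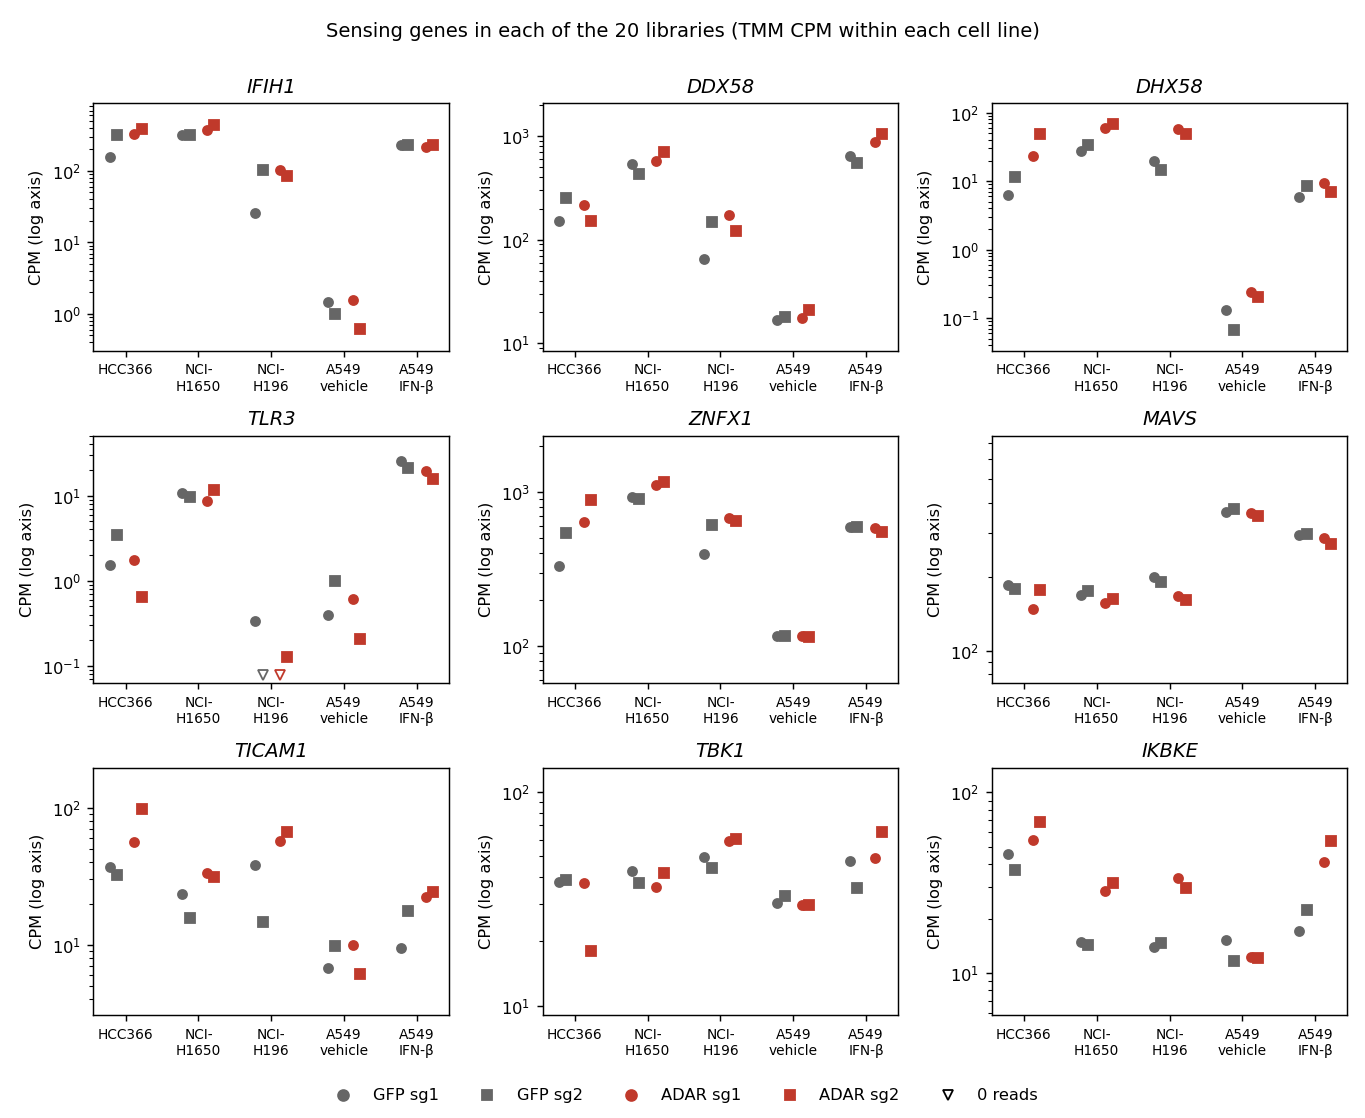
CPM of each member (1 panel per gene, log axis) in all 20 libraries, scaled within each cell line; grey points are GFP and red points ADAR sgRNAs, circles sg1, squares sg2 and open triangles 0 reads. The A549 columns with vehicle sit far below those with IFN-β for *IFIH1*, *DDX58*, *DHX58* and *TLR3*, and in the *IKBKE* panel the red points rise above the grey ones in the 3 dependent lines and in A549 with IFN-β.

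In A549 with IFN-β, 4 of 9 members were higher with ADAR than with GFP sgRNAs and none lower (background 10.8% higher and 6.19% lower): *IKBKE*, *DDX58*, *TICAM1* and *TBK1*. *IKBKE* differed by 1.27 on the log2 scale (SE 0.17, adjusted p = 2.04e-06), from the values given above. *DDX58* was at 878.7 and 1044 CPM against 642.7 and 555.3 CPM (log2 difference 0.68, SE 0.10, adjusted p = 1.69e-05). *TICAM1* was at 22.18 and 24.27 CPM against 9.472 and 17.51 CPM (0.76, SE 0.23, adjusted p = 0.0212), and *TBK1* at 49.29 and 65.11 CPM against 47.55 and 35.58 CPM (0.48, SE 0.15, adjusted p = 0.0212). In all 4 both knockout libraries lay above both controls, while in *TLR3*, *ZNFX1* and *MAVS* both lay below both controls. The *TICAM1* call was lost without ADAR IFN-β sg2 (0.70, adjusted p = 0.191) or GFP IFN-β sg1 (0.42, adjusted p = 0.21) and was at 1.30 (adjusted p = 0.00142) without GFP IFN-β sg2. The *TBK1* call was lost without ADAR IFN-β sg2 (0.25, adjusted p = 0.51) or GFP IFN-β sg2 (0.28, adjusted p = 0.276). *IFIH1* (log2 difference −0.04, adjusted p = 0.837), *DHX58* (0.14, adjusted p = 0.774), *TLR3* (−0.42, adjusted p = 0.174), *ZNFX1* (−0.07, adjusted p = 0.661) and *MAVS* (−0.09, adjusted p = 0.541) did not pass.

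**Figure D5:**
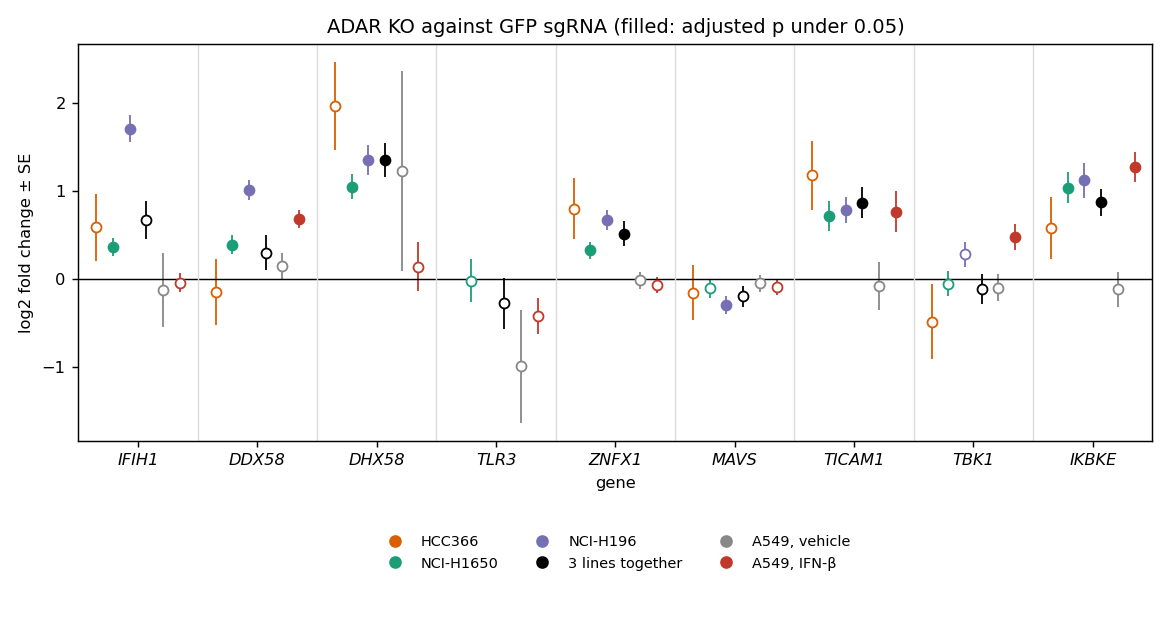
Log2 change with ADAR against GFP sgRNAs for each member (x axis, point ± SE from edgeR) in each of 6 comparisons; filled points have an adjusted p below 0.05. *IKBKE* is filled in NCI-H1650, NCI-H196, the 3 lines together and A549 with IFN-β, and no member is filled in A549 with vehicle or in HCC366.

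Whether the effect of *ADAR* KO in the 3 dependent lines differed from that in A549 with vehicle was tested directly. Of 9 members, 1 passed, *IKBKE*, with a difference of 1.04 on the log2 scale (SE 0.25, adjusted p = 0.0365; background 0.814% higher and 0.138% lower). The call was lost without any 1 of 15 libraries, namely all but both HCC366 ADAR libraries, both A549 GFP libraries with IFN-β and NCI-H196 GFP sg2, at differences from 0.87 to 1.22 and adjusted p from 0.052 to 0.382. *TICAM1* had a difference of 0.98 (adjusted p = 0.171) and *ZNFX1* of 0.57 (adjusted p = 0.234), and both passed without HCC366 ADAR sg1 (1.03, adjusted p = 0.00279, and 0.58, adjusted p = 0.00846). The difference for *IFIH1* was 0.99 (SE 0.59, adjusted p = 0.466). For the receptors, a change in some lines and none called in A549 is therefore not shown to be a difference between them.

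The wider pathway was followed with 7 lists of genes around the members. Of 12 outputs of MAVS and TRIF signalling (interferons, chemokines and early interferon-induced genes), 10 of 12 tested were higher with *ADAR* KO in NCI-H1650, 9 of 9 in NCI-H196, 0 of 7 in HCC366 and 6 of 10 in A549 with IFN-β, and none was called in A549 with vehicle. In A549, *IFNB1*, *IFNL1*, *IFNL2* and *IFNL3* passed the filter on low counts only through the ADAR pair with IFN-β, where they were called higher. In NCI-H1650 the GFP pair held 6 and 8 reads of *IFNB1* and 7 and 6 of *IFNL2*. In NCI-H196 it held 10 and 0 of *IFNL1*. The filter thus favoured these calls, which are no evidence that the list stands out. Among 10 IRF and NF-κB factors, NCI-H1650 had 5 that were higher, NCI-H196 had 7, the 3 lines together had 6 and A549 with IFN-β had 7, and none was lower in these comparisons. Of all genes tested, 6.18% were higher and 2.42% lower in NCI-H1650, and 10.3% and 7.50% in NCI-H196. The shares were 1.20% and 0.0449% in HCC366, and 4.28% and 1.02% across the 3 lines. In A549 they were 10.8% and 6.19% with IFN-β, and 0.0324% and 0.0906% with vehicle. The median log2 change of this list across the 3 lines was 0.82, against −0.0066 over all genes. The NF-κB subunit gene *RELB* rose by 1.04 (SE 0.12, adjusted p = 1.14e-09) in NCI-H1650 and 1.38 (SE 0.11, adjusted p = 2.61e-31) in NCI-H196, and was 1.36 higher (SE 0.12, adjusted p = 4.25e-10) in A549 with IFN-β. The list values of NCI-H196, here and below, rest mostly on GFP sg1, since GFP sg2 held 62679 reads on genes. They are given from the main fit only, while the member calls of this line were all lost without GFP sg1. *IRF3*, the substrate of both kinases, was not called in any of these comparisons, with a log2 change of 0.24 (adjusted p = 0.374) across the lines.

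Among 14 inhibitors of the RIG-I-like receptors, 2 were higher across the 3 lines, where 4.28% of all genes were higher and 1.02% lower. *TNFAIP3*, which encodes the ubiquitin-editing enzyme A20, was the one listed gene called in HCC366 (log2 change 1.99, SE 0.33, adjusted p = 0.0323), and changed by 1.73 (SE 0.12) in NCI-H1650, 1.75 (SE 0.11) in NCI-H196 and 3.07 (SE 0.15) in A549 with IFN-β, against 0.31 (adjusted p = 0.998) in A549 with vehicle. *CYLD*, a deubiquitinase that acts on RIG-I and TBK1, changed by 0.90 (SE 0.16, adjusted p = 0.00228) across the lines. Of 14 partners of the MAVS and TBK1 complexes none was called across the 3 lines, and 5 were higher in A549 with IFN-β (10.8% of all genes higher), among them *TRAF2* (0.61, SE 0.11, adjusted p = 0.000123) and *TANK* (0.70, SE 0.17, adjusted p = 0.00355). Of 10 cofactors of the receptors 2 were higher across the lines, one being the helicase *DDX60* (0.68, SE 0.16, adjusted p = 0.0167). Of 13 other dsRNA-binding proteins 1 was higher, a share near that of all genes, namely *OASL* (0.71, SE 0.18, adjusted p = 0.029), while *EIF2AK2*, which encodes the dsRNA-activated kinase PKR, was at −0.39 (adjusted p = 0.166). Of 12 genes for TLR3 trafficking and processing none was higher and 1 lower across the lines, and 4 of 11 were lower in A549 with IFN-β (6.19% of all genes lower), among them *UNC93B1* (−0.41, SE 0.11, adjusted p = 0.0116), the chaperone that brings TLR3 to endosomes.

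IFN-β itself, in A549 with GFP sgRNAs, raised 3 of 10 cofactors, 2 of 13 inhibitors, 3 of 14 complex partners, 5 of 10 IRF and NF-κB factors, 5 of 11 TLR3 trafficking genes, 5 of 12 other dsRNA-binding proteins and 6 of 10 outputs, and lowered none of them, beside 4.39% of all genes higher and 1.31% lower. *DDX60* rose by 4.51 (SE 0.14, adjusted p = 1.11e-21), *IRF7* by 4.88 (SE 0.19, adjusted p = 1.45e-19), *NLRC5* by 3.82 (SE 0.14, adjusted p = 2.94e-20) and *EIF2AK2* by 2.53 (SE 0.11, adjusted p = 1.88e-18). In the interaction of *ADAR* KO and IFN-β, 5 of the 10 IRF and NF-κB factors passed with a larger effect under *ADAR* KO (4.07% of all genes higher and 0.977% lower). So did 3 of 14 complex partners (*AZI2*, *TRAF2* and *TRAF3*) and 2 of 13 inhibitors. The inhibitors were *TNFAIP3* at 2.77 (SE 0.24, adjusted p = 3.24e-09) and *CYLD* at 1.06 (SE 0.22, adjusted p = 0.00303). None of the cofactors did. *ISG15*, among the outputs, and *OAS1*, among the other dsRNA-binding proteins, passed the other way, at −1.03 (adjusted p = 0.019) and −0.65 (adjusted p = 0.0166).

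The reads of the interferon genes themselves are few enough to give as counts. *IFNB1* held 17 and 62 reads in A549 with ADAR sgRNAs and IFN-β and 0 in the other 6 A549 libraries. It held 6 and 8 reads with GFP and 59 and 59 with ADAR sgRNAs in NCI-H1650, 0 and 2 against 3 and 6 in HCC366, and 2 and 0 against 2 and 22 in NCI-H196. These counts are not corrected for depth. In NCI-H196 the 2 reads of sg1 were 0.223 CPM with GFP and 2.03 CPM with ADAR sgRNAs, and the 0 was in the shallow GFP sg2. *IFNL1* held 24 and 88 reads in A549 with ADAR sgRNAs and IFN-β, 0 and 0 with GFP sgRNAs and IFN-β, and 32 and 44 against 174 and 180 in NCI-H1650. In A549 all reads of both genes came from the ADAR pair with IFN-β, apart from 1 *IFNL1* read in GFP vehicle sg1.

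The likeness of patterns was described by Pearson's r over the 10 condition means (log2 CPM), which share cell line, sgRNA target and treatment and carry no test. Of 19522 genes compared, those most like *IFIH1* were *HERC5* (r = 0.979), *DDX60* (r = 0.975), *HERC6*, *PARP10* and *IFIT3*. Those most like *TLR3* were *PRKD2* (r = 0.941), *MYL12A*, *APOBEC3F*, *UBE2L6* and *LAMP3*. Within the set, *IFIH1* was most like *ZNFX1* (r = 0.956), then *DDX58* (r = 0.894) and *DHX58* (r = 0.873), while *DHX58* and *MAVS* ran opposite (r = −0.864) and *IFIH1* and *TBK1* had r = 0.0393. *IKBKE* was most like *TICAM1* (r = 0.7124).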

How the data were processed

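Ribosomal-RNA-depleted RNA was sequenced from 20 libraries. Per the study's methods and the submitters' processing notes, the authors aligned reads with STAR to hg19 and deposited HTSeq gene counts, which are whole-number raw counts. Tool versions, annotation release and strand setting are not given in the sources used here. Rows naming no gene (51.33 to 93.28% of reads) stayed out of library sizes and tests. Counts were scaled by TMM within each line (or over the 8 GFP libraries without IFN-β) and tested with edgeR 4.0.16 in R 4.3.3 (quasi-likelihood, filterByExpr with a minimum count of 10, Benjamini-Hochberg over all genes tested, threshold 0.05) in 16 comparisons. SE is the log2 change divided by the square root of F. The test was checked on simulated data. DESeq2 1.42.0, other scaling, no filter, blocks, GC and length offsets and left-out libraries were alternatives. Same-numbered sgRNAs did not deviate together (correlations −0.253 to −0.00131), so their numbers were not taken to pair libraries. All 9 members were named, with up to 3 genes per list by largest called change, some others named after their values were seen. Members and lists were chosen with earlier results of these data known. Libraries of few reads give wide intervals; those printed are exact and cover counting error only, and a zero allows 3 reads as floor.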

Additional observations from a re-analysis of the deposited data

Results flagged for a closer look

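The effect of IFN-β on *IKBKE* in A549 differed between ADAR and GFP sgRNAs by 1.39 on the log2 scale, by the interaction term of the edgeR fit. With either sgRNA target both IFN-β libraries lay above both vehicle libraries, with GFP sgRNAs narrowly (16.97 against 15.31 CPM at the nearest). The rise with GFP sgRNAs, 0.58 on the log2 scale, was not called (edgeR adjusted p = 0.067), so a smaller rise in those cells is not established.

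The effect of *ADAR* KO on *IKBKE* differed between the 3 dependent lines and A549 with vehicle by 1.04 on the log2 scale, by the contrast of both effects in one fit. *IKBKE* was higher in each knockout library of the dependent lines than in either GFP library of the same line. Outlying libraries could not be looked for within conditions, since each holds 2.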

How the results depend on the processing

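Of 1923 member values under alternatives, 1765 kept their side of the threshold (59 of them with a change of sign where neither value was called), 112 lost the threshold, 43 gained it and 3 changed sign after a call. The 3 were without NCI-H196 GFP sg1, the deeper control of that line: the *ADAR* KO changes of *IFIH1* (−0.21) and *DDX58* (−0.15) there, and the basal *TICAM1* difference of NCI-H1650 from NCI-H196 (0.68 in place of −0.90). With any other 1 library left out these ran up to 1.79 and 1.27, and down to −1.22. Without GFP sg1, the shallow GFP sg2 alone stood for the controls of NCI-H196. The cause of these or the other changes was not tested.

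The number of members called for *ADAR* KO in HCC366 was 0, and it was 1 with no filter, with DESeq2, with the GC and length offsets, with the replicate block by sgRNA number and with a crossed block chosen after seeing the data, 2 with the replicate block and offsets together, 3 with all 20 libraries in one fit, and 0 to 6 with 1 library left out. In NCI-H1650, against 6, it was 3 with DESeq2, 2 with all 20 libraries and 2 to 6 with 1 left out. In NCI-H196, against 7, it was 0 with DESeq2, 3 with the replicate block, 3 with all 20 libraries and 0 to 7 with 1 left out. In A549 with IFN-β, against 4, it was 1 with all 20 libraries and 2 to 4 with 1 left out. The interaction, against 1, gave 2 with no filter and 1 to 3 with 1 left out. The difference of the KO effects, against 1, gave 0 with no filter, with DESeq2 (where *IKBKE* had no adjusted p) and with the replicate block, and 0 to 3 with 1 left out. The basal comparison of HCC366 with NCI-H196, against 5, gave 3 with DESeq2 and 1 to 5 with 1 left out, and that of NCI-H1650 with NCI-H196, against 6, gave 3 to 6. The other comparisons stayed within 1.5 times of their counts under each alternative.

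As same-numbered sgRNAs did not deviate together, the replicate block says nothing of a weaker effect. Depth limited NCI-H196 GFP sg2, *DHX58* and *TLR3* in A549 vehicle, and *TLR3* in HCC366 and NCI-H196.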
